A study of Homo sapiens with 12 samples.

Results

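The genes described here are 10 cardiac transcription factors, namely NKX2-5, GATA4, GATA6, TBX5, TBX20, MEF2A, MEF2C, HAND1, HAND2 and ISL1. They were taken by gene name from a table of 78986 features, and each name matched 1 Ensembl gene. The table holds 3′-end mRNA counts from human cardiomyocytes differentiated from induced pluripotent stem cells of WTC-mEGFP-ACTN2-cl85, an established line in which all groups carry a heterozygous endogenous C-terminal mEGFP tag on ACTN2, the sarcomeric alpha-actinin gene. Cultures were enriched for cardiomyocytes in lactate medium without glucose and then received, for 48 h, 10 nM endothelin-1 (ET-1) together with 16 µM sacubitrilat, ET-1 alone, sacubitrilat alone or DMSO vehicle, with 3 separate cultures in each group. ET-1 is a vasoconstrictor peptide that enlarges cardiomyocytes through Gq-coupled receptors, and sacubitrilat blocks neprilysin, the peptidase by which natriuretic peptides and ET-1 itself are cleaved. Every culture came from this single line, so the 3 cultures of a group are repeats within 1 genetic background.

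These factors form the regulatory core of the heart muscle cell. GATA4 and GATA6 are zinc finger proteins, NKX2-5 and ISL1 are homeodomain proteins, TBX5 and TBX20 bind DNA through a T-box, MEF2A and MEF2C through a MADS box, and HAND1 and HAND2 are basic helix-loop-helix proteins. They bind neighbouring sites at the genes of the sarcomere, of calcium handling and of natriuretic peptides, and several activate one another's genes. In the hypertrophic response of the heart, GATA4 and the MEF2 proteins are known as end points of the kinase and calcineurin pathways that ET-1 switches on, and much of that control acts on the proteins, which mRNA counts do not measure.

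Total counts differed between groups. The 3 libraries with both compounds held 87281 to 158791 counts, the ET-1 libraries 1473744 to 1781653, the sacubitrilat libraries 1268308 to 1953122 and the vehicle libraries 80844 to 316932. The summed total of the ET-1 libraries was 8.75 times that of vehicle and 13.1 times that of both compounds, whereas it was 1.09 times that of sacubitrilat. Comparisons of a single compound with vehicle, and of both compounds with a single one, therefore set high totals against low ones, and depth and treatment cannot be told apart in them. The groups of like total were ET-1 and sacubitrilat, called deep below, and likewise both compounds and vehicle, called shallow. Of the 12 cardiomyocyte markers examined, none was at 0 counts in any group, and their summed level was 24983 to 48564 CPM (each count scaled by the total of its library) with both compounds, 29747 to 31506 with ET-1, 23257 to 24377 with sacubitrilat and 25272 to 28128 with vehicle. Single markers moved in both directions beneath these sums. With both compounds over ET-1, 4 of the 12 were higher and 6 lower by the test described below, with a median log2 fold change of -0.69. Over all tested genes 16.6% were higher and 17.8% lower there, with a median of -0.23. With ET-1 over vehicle 7 of the markers were higher and 2 lower, with a median of 1.11. Over all tested genes 11% were higher and 12.2% lower there, with a median of 0.10. Markers of other cell types moved between groups as well. The summed level of 13 endoderm and liver markers was 579 to 756 CPM with both compounds, 65.1 to 103 with ET-1, 66.8 to 78.1 with sacubitrilat and 254 to 891 with vehicle. For 12 fibroblast markers it was 2160 to 4742 CPM with both compounds, 7013 to 7884 with ET-1, 7338 to 7687 with sacubitrilat and 2010.0 to 5358 with vehicle. For 10 smooth muscle markers it was 1054 to 2397 CPM with both compounds, 3927 to 3989 with ET-1, 3120 to 3200.2 with sacubitrilat and 659 to 2277 with vehicle. Their part in the results below was not tested. In these bulk samples fewer cells of a type and less RNA per cell cannot be told apart. For the ET-1 and sacubitrilat libraries a second line of the labels names the other compound; groups here follow the titles and treatment fields, and under that line the values given for these 2 groups would change places.

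Of the 10 factors, 8 passed the filter on low counts and were tested with edgeR's quasi-likelihood test among 11203 genes, with Benjamini-Hochberg adjustment and a threshold of 0.05. HAND1 had 82 counts over the 12 libraries and TBX20 1.5, and neither was tested. With ET-1 relative to vehicle, GATA6, NKX2-5, MEF2A and GATA4 rose, 4 of the 8, and none fell, where 11% of all tested genes rose and 23.2% changed. With both compounds relative to ET-1, these 4 factors were lower, where 17.8% of all tested genes fell and 34.4% changed. The 2 comparisons share the ET-1 libraries. With sacubitrilat relative to vehicle, NKX2-5, GATA4 and GATA6 rose, 3 of the 8, where 8.68% of genes rose and 19.9% changed. With both compounds relative to sacubitrilat, GATA4, GATA6 and MEF2A fell and HAND2 rose, where 17.8% of genes fell, 17.2% rose and 35% changed. The call of HAND2 was lost without replicate 1 of the combined group. Between the deep groups the differences were smaller. NKX2-5, MEF2A and HAND2 were higher with ET-1 than with sacubitrilat, 3 of the 8, and none lower, where 6.44% of genes were higher, 4.78% lower and 11.2% changed. Between both compounds and vehicle edgeR called 0 of the 8, where it called 0.0803% of genes higher, 0.0982% lower and 0.179% in all. In that comparison 2 factors had an unadjusted p under 0.05 in edgeR's test, as did 1297 of the 11203 genes. DESeq2 called 1 factor and 165 genes there, and limma-voom 0 factors and 10 genes. The median log2 fold change of the 8 factors was 0.65 with ET-1 over vehicle (0.10 over all tested genes), -1.04 with both compounds over ET-1 (-0.23), 0.44 with sacubitrilat over vehicle (0.14), -0.80 with both over sacubitrilat (-0.25), 0.22 with ET-1 over sacubitrilat (-0.01) and -0.29 with both over vehicle (-0.08).

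**Figure D1:**
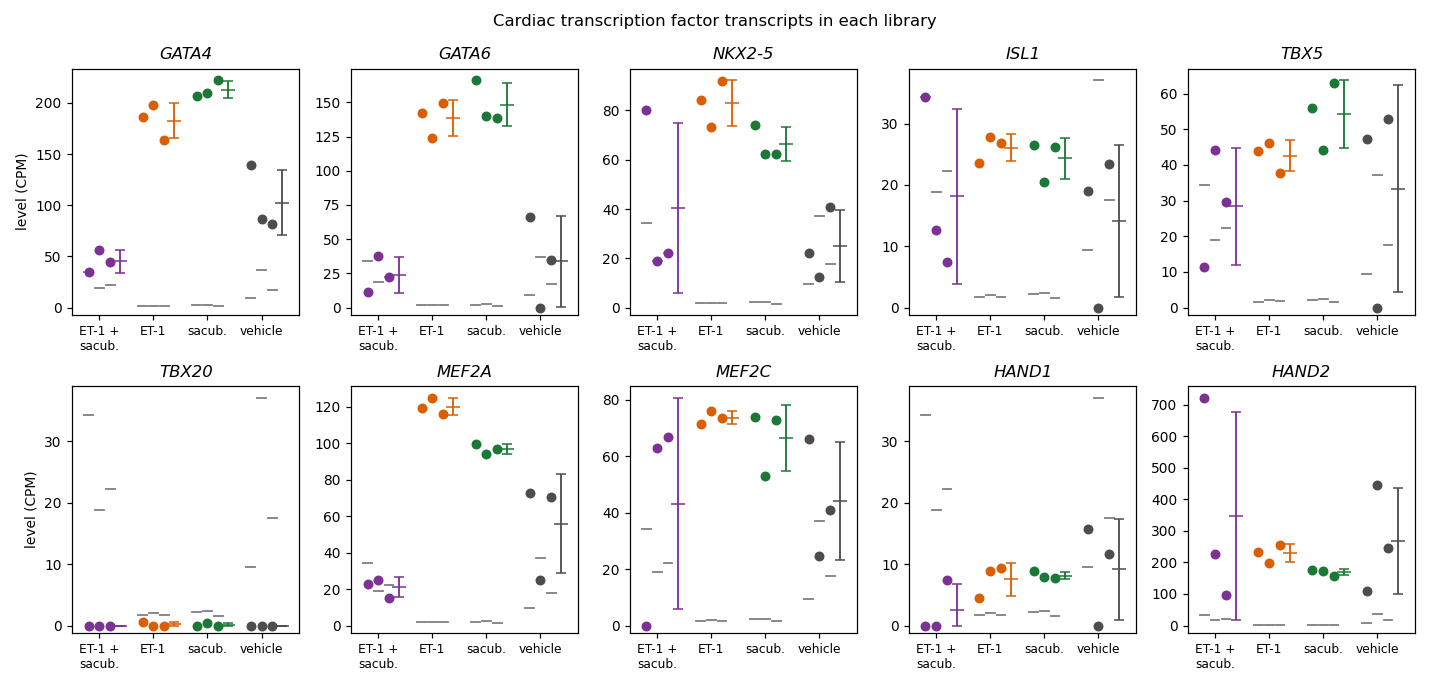
Level of each of the 10 factors in each library, in CPM, with 1 panel per gene and its own axis. Points are libraries, bars beside them give the group mean ± SD (n = 3, the lower end drawn no lower than 0), and grey ticks mark the level that 3 counts would give in that library. GATA4, GATA6 and MEF2A stand lowest in the group with both compounds, whereas HAND2 spreads there over 96.3 to 722 CPM.

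GATA4 (ENSG00000136574, chromosome 8, 11676959 to 11760002 on GRCh38, plus strand), which drives cardiomyocyte genes from the first heart precursors on and is phosphorylated in hypertrophy, was lowest with both compounds and highest with sacubitrilat. It stood at 34.4, 56.7 and 44.5 CPM in the 3 cultures with both compounds, at 186, 198 and 164 CPM with ET-1, at 207, 209.7 and 222 CPM with sacubitrilat and at 139, 86.6 and 82.0 CPM with vehicle. The libraries with both compounds were all below the vehicle libraries, which were all below those given a single compound. With both compounds relative to ET-1 it fell by 1.98 ± 0.33 on the log2 scale (log2 fold changes are given ± SE throughout; edgeR adjusted p = 9.49e-06, 3.95-fold lower), from 18 counts where the rate of the ET-1 libraries would give 69.3. Relative to sacubitrilat the difference was -2.09 ± 0.32 (edgeR adjusted p = 3.09e-06). With ET-1 it rose by 0.72 ± 0.22 over vehicle (edgeR adjusted p = 0.0137) and with sacubitrilat by 0.83 ± 0.22 (edgeR adjusted p = 0.00514), and ET-1 differed from sacubitrilat by -0.11 ± 0.11 (95% interval -0.34 to 0.12). Without vehicle replicate 3 neither rise passed (0.62 and 0.72, edgeR adjusted p of 0.103 and 0.057), and without vehicle replicate 1 they were 1.45 and 1.56. With both compounds relative to vehicle, GATA4 differed by -1.27 ± 0.42, which edgeR did not call over all genes (adjusted p = 0.206), although DESeq2 did (adjusted p = 0.0466) and edgeR did without vehicle replicate 2 (-1.48, adjusted p = 0.0428). With every library thinned at random to 80000 counts, GATA4 kept 3, 7 and 4 counts with both compounds and 14, 18 and 16 with ET-1. It kept 20, 24 and 27 with sacubitrilat and 12, 6 and 7 with vehicle. Thinning leaves a gene's expected share of its library unchanged, so the order of the group means could hardly change. These counts show the counting error at equal depth and do not separate depth from treatment.

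GATA6 (ENSG00000141448, chromosome 18, 22169443 to 22202528, plus strand), a second GATA protein that shares DNA sites with GATA4 and also directs endoderm, moved further. Its level was 11.5, 37.8 and 22.2 CPM with both compounds, 142, 124 and 149.5 CPM with ET-1, 166, 140.3 and 138 CPM with sacubitrilat, and 66.3, 0 and 35.2 CPM with vehicle. Every library given a single compound exceeded every other library, while the groups with both compounds and with vehicle overlapped. It rose 3.00-fold with ET-1 over vehicle (log2 1.59 ± 0.31, edgeR adjusted p = 1.67e-04) and 2.94-fold with sacubitrilat (1.55 ± 0.31, edgeR adjusted p = 2.85e-04), and these values were 2.86 and 2.83 on the log2 scale without vehicle replicate 1. With both compounds it was 5.41-fold lower than with ET-1 (-2.44 ± 0.43, edgeR adjusted p = 2.75e-05), and -3.19 without replicate 2 of that group. The difference from sacubitrilat was -2.40 ± 0.43 (edgeR adjusted p = 3.76e-05), and -3.15 without the same replicate. ET-1 and sacubitrilat themselves differed by 0.03 ± 0.12 (95% interval -0.22 to 0.28). The count of 0 in vehicle replicate 2 came from the library of 80844 counts, in which 3 counts would be 37.1 CPM. The endoderm and liver markers given above stood high in the groups where GATA6 stood low.

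The 300 bases around the start of GATA6 in RefSeq (GRCh38.p14, 250 before and 50 from the start onwards, chr18:22169339-22169638, plus strand) are shown because GATA6 had the widest difference between groups of these factors under the interaction test below. Promoter windows were searched on both strands for GATAAG (zinc finger factors of the GATA4 family), AAGTG (NK-2 homeodomain factors), the MEF2 motif, GGTGTGA (T-box factors), CANNTG (the E-box of basic helix-loop-helix factors) and the sequence TATAAA. Matches to the NK-2 motif and the E-box can overlap. Capitals mark the single match, an E-box that begins 170 bases before the start.
GATA6: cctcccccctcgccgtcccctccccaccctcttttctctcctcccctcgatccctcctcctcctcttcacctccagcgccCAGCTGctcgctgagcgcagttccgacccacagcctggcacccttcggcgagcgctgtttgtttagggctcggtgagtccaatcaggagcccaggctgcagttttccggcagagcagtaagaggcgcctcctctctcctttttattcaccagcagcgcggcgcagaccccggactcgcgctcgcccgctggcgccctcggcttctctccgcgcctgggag
The E-box occurs in 68.7% of the 35116 promoter windows of that table, so a match to it is common. GATAAG occurs in 6.36%, AAGTG in 43.1%, the MEF2 motif in 2.73%, GGTGTGA in 3.45% and TATAAA in 11.5% of them.

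NKX2-5 (ENSG00000183072, chromosome 5, 173232109 to 173235357, minus strand) is the NK-2 homeodomain factor that marks committed cardiac cells and partners with GATA4 at the natriuretic peptide gene NPPA. It stood at 80.2, 18.9 and 22.2 CPM with both compounds (7, 3 and 3 counts), at 84.2, 73.3 and 91.9 CPM with ET-1, at 74.2, 62.3 and 62.5 CPM with sacubitrilat and at 22.1, 12.4 and 41.02 CPM with vehicle. All libraries given a single compound were above all vehicle libraries, and replicate 1 of the combined group lay within their range. NKX2-5 rose 3.22-fold with ET-1 over vehicle (1.69 ± 0.36, edgeR adjusted p = 4.83e-04), from 416 counts against 15, where the ET-1 rate would give 47.5 in the vehicle libraries. With sacubitrilat it rose by 1.23 ± 0.38 (edgeR adjusted p = 0.0171), and without vehicle replicate 1 by 1.25 with an adjusted p of 0.0704. It was lower by 1.32 ± 0.39 on the log2 scale with both compounds than with ET-1 (a log2 fold change of -1.32, edgeR adjusted p = 0.0084). Without replicate 1 of the combined group this was -2.13, and without replicate 2 it was -1.14 and did not pass (edgeR adjusted p = 0.0662). The difference between both compounds and sacubitrilat, -0.87 ± 0.42, did not pass (edgeR adjusted p = 0.103), but it passed without replicate 1 of the combined group (-1.66), without vehicle replicate 1 (-1.11), without vehicle replicate 2 (-0.99), without the libraries under 100000 counts (-1.61) and without a filter on low counts (-1.35). Between the 2 deep groups NKX2-5 was 1.37-fold higher with ET-1 than with sacubitrilat (0.46 ± 0.14, edgeR adjusted p = 0.0222). All 3 ET-1 libraries exceeded 2 of the 3 sacubitrilat libraries, and the remaining pair, 73.3 CPM with ET-1 and 74.2 CPM with sacubitrilat, overlapped. That call was lost without ET-1 replicate 1 or 3 or sacubitrilat replicate 2 or 3, at edgeR adjusted p of 0.072, 0.133, 0.0592 and 0.125, and also without a filter (edgeR adjusted p = 0.061), with DESeq2 (adjusted p = 0.092) and with limma-voom (adjusted p = 0.273), while the value stayed between 0.39 and 0.54 over all libraries left out in turn.

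ISL1 (ENSG00000016082, chromosome 5, 51383391 to 51394738, plus strand), the LIM homeodomain factor of second heart field precursors, was low and showed no called difference. It stood at 34.4, 12.6 and 7.41 CPM with both compounds, from 3, 2 and 1 counts, at 23.6, 27.8 and 26.8 CPM with ET-1, at 26.4, 20.5 and 26.1 CPM with sacubitrilat, and at 18.9, 0 and 23.4 CPM with vehicle. The ET-1 libraries, at 23.6 CPM or more, lay just above the vehicle libraries, at 23.4 CPM or less, and the other pairs of groups overlapped. ET-1 differed from vehicle by 0.59 ± 0.46 (95% interval -0.33 to 1.52, edgeR adjusted p = 0.369) and from sacubitrilat by 0.19 ± 0.20 (95% interval -0.21 to 0.59, edgeR adjusted p = 0.632). Its summed counts were 6 with both compounds and 10 with vehicle.

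The T-box factors divided into 1 gene that was measured and 1 that was nearly undetected. TBX5 (ENSG00000089225, chromosome 12, 114353931 to 114408442, minus strand), which patterns the left ventricle and atria and is mutated in Holt-Oram syndrome, stood at 11.5, 44.1 and 29.6 CPM with both compounds, 43.8, 46.1 and 37.8 CPM with ET-1, 55.8, 44.2 and 62.98 CPM with sacubitrilat, and 47.3, 0 and 52.7 CPM with vehicle. In the vehicle libraries it had 24 counts, where the ET-1 rate would give 24.1, so its share of the total was nearly the same in these 2 groups, whose libraries overlapped. The log2 fold change was 0.04 ± 0.36 for ET-1 over vehicle (95% interval -0.69 to 0.77) and -0.27 ± 0.17 for ET-1 over sacubitrilat (95% interval -0.60 to 0.07), and none of the 6 comparisons between groups passed. Without a filter on low counts the difference between both compounds and sacubitrilat was -1.22 and passed (edgeR adjusted p = 0.0336), against -0.73 with the filter. TBX20 (ENSG00000164532, chromosome 7, 35202430 to 35254147, minus strand), a T-box factor of the adult and developing heart muscle, had 1 count in ET-1 replicate 1, 0.5 in sacubitrilat replicate 2 and 0 in each of the other 10 libraries. A count of 0 allows up to 7.87 CPM over the libraries with both compounds and up to 5.28 CPM over the vehicle libraries (3 counts over the group, counting error only). Its level in the 2 deep groups was 0.2 ± 0.3 CPM with ET-1 and 0.1 ± 0.2 with sacubitrilat (SD, n = 3).

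MEF2A (ENSG00000068305, chromosome 15, 99565417 to 99716466, plus strand), the MADS-box factor that is most abundant in postnatal heart muscle and answers to calcium signals, was lowest in the combined group and highest with ET-1. Its level was 22.9, 25.2 and 14.8 CPM with both compounds (2, 4 and 2 counts), 119, 125 and 116 CPM with ET-1, 99.5, 93.8 and 96.8 CPM with sacubitrilat, and 72.6, 24.7 and 70.3 CPM with vehicle. ET-1 libraries exceeded all sacubitrilat libraries, those exceeded all vehicle libraries, and the combined libraries reached only the lowest vehicle library. MEF2A rose 1.88-fold with ET-1 over vehicle (0.91 ± 0.25, edgeR adjusted p = 0.00577). It was 5.81-fold lower with both compounds than with ET-1 (-2.54 ± 0.40, edgeR adjusted p = 5.43e-06), from 8 counts where the ET-1 rate would give 45.6. Relative to sacubitrilat it was lower by 2.12 on the log2 scale (-2.12 ± 0.43, edgeR adjusted p = 1.92e-04). With ET-1 it was 1.34-fold higher than with sacubitrilat (0.42 ± 0.11, edgeR adjusted p = 0.0107), and this value was 0.40 to 0.46 with any library left out. That call was lost without a filter on low counts (edgeR adjusted p = 0.0591) and with limma-voom (adjusted p = 0.235). Sacubitrilat differed from vehicle by 0.49 ± 0.26 (edgeR adjusted p = 0.179). Both compounds differed from vehicle by -1.63 ± 0.54, which did not pass (edgeR adjusted p = 0.207), except without vehicle replicate 2 (-1.92, edgeR adjusted p = 0.034).

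MEF2C (ENSG00000081189, chromosome 5, 88717117 to 88904257, minus strand), the MEF2 protein needed for the first looping heart tube, showed no called difference between groups. It was at 0, 62.98 and 66.7 CPM with both compounds (0, 10 and 9 counts), 71.3, 76.0 and 73.6 CPM with ET-1, 73.8, 52.8 and 72.7 CPM with sacubitrilat, and 66.3, 24.7 and 41.02 CPM with vehicle. The ET-1 libraries were above all vehicle and combined libraries and overlapped with sacubitrilat, and the combined library at 0 held 87281 counts in all. With ET-1 over vehicle its log2 fold change was 0.51 ± 0.32 (95% interval -0.14 to 1.16, edgeR adjusted p = 0.256), although without vehicle replicate 1 it was 1.35 and passed (edgeR adjusted p = 0.0357). Both compounds differed from ET-1 by -0.59 ± 0.39 (95% interval -1.38 to 0.19), and ET-1 from sacubitrilat by 0.24 ± 0.15 (95% interval -0.06 to 0.55). Without a filter on low counts the difference between both compounds and ET-1 was -1.08 and passed (edgeR adjusted p = 0.0231). Whether MEF2A and MEF2C differed from each other in their change was not tested.

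The MEF2A window shown here (RefSeq, GRCh38.p14, chr15:99565734-99566033, plus strand) is 1 of 3 listed for the gene and is given because it holds a match to the MEF2 motif itself. Capitals mark CTAAAAATAG, which begins 23 bases before the start and is the sole match of the 6 motifs in this window.
MEF2A: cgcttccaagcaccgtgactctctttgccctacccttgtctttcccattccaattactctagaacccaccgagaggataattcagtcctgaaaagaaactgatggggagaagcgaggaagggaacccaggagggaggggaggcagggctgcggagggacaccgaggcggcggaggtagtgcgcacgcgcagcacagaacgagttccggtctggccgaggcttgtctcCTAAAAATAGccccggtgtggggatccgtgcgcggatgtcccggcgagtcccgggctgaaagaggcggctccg
The MEF2 motif was in 2.73% of the promoter windows, as given above, and among the windows of the factors it was in this one. The match describes the letters of the window and says nothing of binding. Promoter windows were at hand for 8 of the 10 factors, and NKX2-5 and GATA4 were without one here.

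HAND2 (ENSG00000164107, chromosome 4, 173524969 to 173530229, minus strand), which builds the right ventricle and is also made by heart fibroblasts, was the factor with the widest spread between cultures. It stood at 722, 227 and 96.3 CPM with both compounds (63, 36 and 13 counts), at 232, 199.5 and 256 CPM with ET-1, at 176, 173 and 158 CPM with sacubitrilat and at 110.4, 445 and 246 CPM with vehicle. The highest value was that of replicate 1 of the combined group and the next that of vehicle replicate 2, the 2 libraries under 100000 counts. Between the deep groups all ET-1 libraries exceeded all sacubitrilat libraries, and HAND2 was 1.48-fold higher with ET-1 (0.57 ± 0.18, edgeR adjusted p = 0.031). That call was lost when any 1 of the 6 libraries was left out, at edgeR adjusted p from 0.0866 to 0.266, with values from 0.49 to 0.66, and also with DESeq2 (adjusted p = 0.728) and limma-voom (adjusted p = 0.414). HAND2 was also higher with both compounds than with sacubitrilat (0.91 ± 0.30, edgeR adjusted p = 0.0185), but without replicate 1 of the combined group the difference was 0.01 (edgeR adjusted p = 0.985). The same call was lost with DESeq2 (adjusted p = 0.125), with limma-voom (adjusted p = 0.245) and without a filter (edgeR adjusted p = 0.255). Thinning to 80000 counts (edgeR adjusted p = 0.0533) and leaving out the libraries under 100000 counts (0.06, edgeR adjusted p = 0.889) also lost it. ET-1 differed from vehicle by 0.20 ± 0.28 (95% interval -0.37 to 0.77) and both compounds from ET-1 by 0.34 ± 0.29 (95% interval -0.24 to 0.93). Without replicate 1 of the combined group, both compounds differed from ET-1 by -0.57.

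The HAND2 window (RefSeq, GRCh38.p14, chr4:173530180-173530479, minus strand) is printed beside the others. Of the tested factors, HAND2 was the farthest from GATA6 in level over the 12 libraries, by the root mean square difference described below (2.23). That measure has no direction. Capitals mark an E-box that begins 242 bases before the start and overlaps a match to AAGTG on the opposite strand, and no other motif matched.
HAND2: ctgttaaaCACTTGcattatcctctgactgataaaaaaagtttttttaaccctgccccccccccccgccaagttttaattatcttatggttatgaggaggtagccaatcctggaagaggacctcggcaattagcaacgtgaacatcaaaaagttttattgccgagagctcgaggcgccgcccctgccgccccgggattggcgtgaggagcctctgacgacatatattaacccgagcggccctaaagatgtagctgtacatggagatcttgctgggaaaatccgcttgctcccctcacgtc

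HAND1 (ENSG00000113196, chromosome 5, 154474972 to 154478264, minus strand), the HAND protein of the left ventricle, was low in all groups. It had 0, 0 and 1 counts with both compounds, 8, 13 and 16 with ET-1, 12, 10 and 15 with sacubitrilat, and 5, 0 and 2 with vehicle. The summed counts were 37 with ET-1 and 37 with sacubitrilat, a ratio of rates of 0.921 (exact 95% counting interval 0.568 to 1.49). The rate with ET-1 was 0.604 times that with vehicle (exact 95% counting interval 0.266 to 1.61), which spans a fall and a rise. The rate with both compounds was 0.353 times that with ET-1 (exact 95% counting interval 0.0087 to 2.09), which spans both as well.

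**Figure D2:**
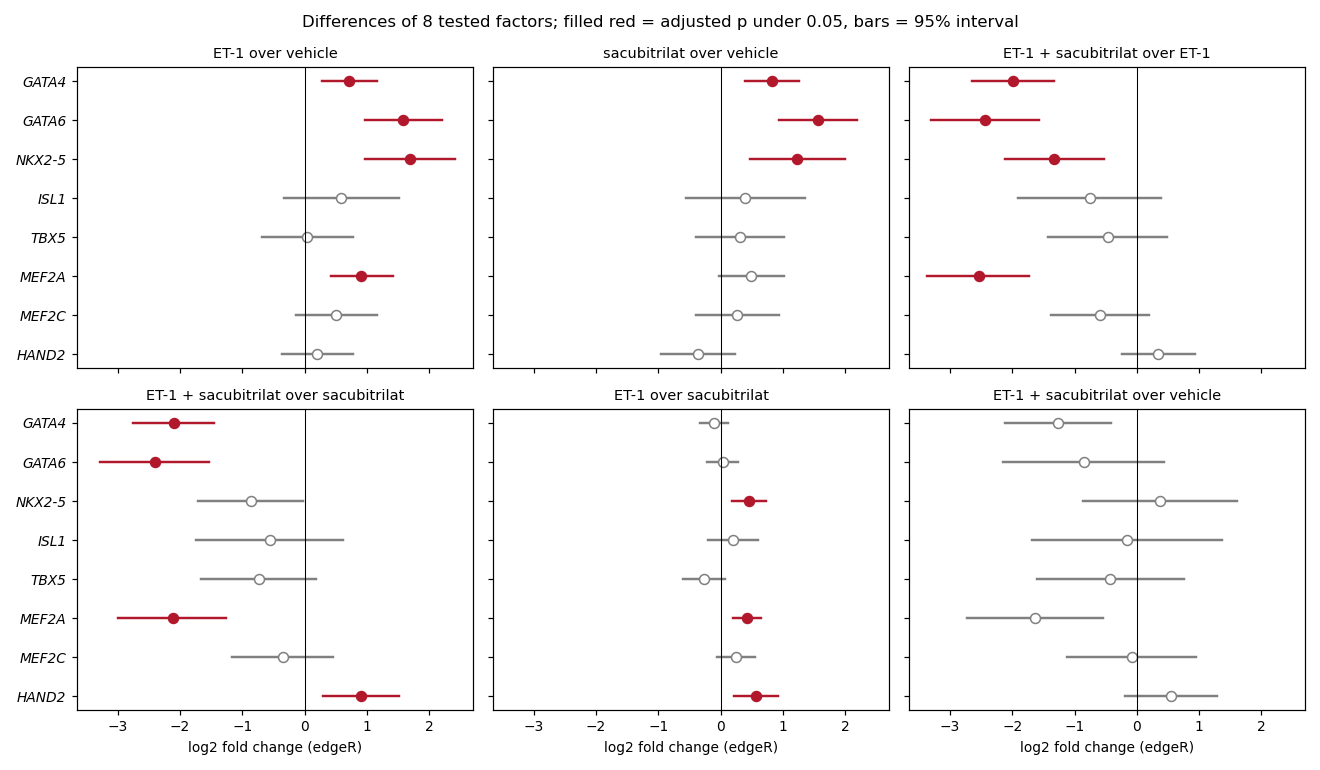
Log2 fold changes of the 8 tested factors in the 6 comparisons between groups, with 95% intervals from edgeR's fit. Red marks an adjusted p under 0.05 over all 11203 genes. GATA4, GATA6 and MEF2A lie near -2 or below with both compounds over each single compound, whereas the estimates for ET-1 over sacubitrilat run from -0.27 to 0.57.

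Whether the effect of ET-1 depended on sacubitrilat was tested as an interaction, the difference between both compounds and sacubitrilat minus that between ET-1 and vehicle. NKX2-5, GATA4, GATA6 and MEF2A were called, all lower, 4 of the 8, where 26% of all tested genes were lower, 20.1% higher and 46.1% called. GATA6 had -3.99 ± 0.52 (edgeR adjusted p = 8.57e-08), MEF2A -3.03 ± 0.49 (edgeR adjusted p = 4.06e-06), GATA4 -2.81 ± 0.39 (edgeR adjusted p = 2.71e-07) and NKX2-5 -2.55 ± 0.55 (edgeR adjusted p = 2.27e-04). HAND2 had 0.71 ± 0.41 and did not pass (edgeR adjusted p = 0.16). Without vehicle replicate 1 the values were -5.50 for GATA6, -3.78 for MEF2A and -3.78 for GATA4, and MEF2C was called at -1.95. GATA6 was -4.80 without replicate 2 of the combined group. NKX2-5 was -3.40 without replicate 1 of that group and -3.16 without vehicle replicate 3. HAND2 was called at 0.91 without replicate 3 of the combined group and at 1.91 after thinning to 80000 counts (edgeR adjusted p = 0.0474). Without a filter on low counts MEF2C was called at -1.59 (edgeR adjusted p = 0.00637) and TBX5 at -1.50 (edgeR adjusted p = 0.0386). This contrast sets the 6 deep libraries against the 6 shallow ones, so that depth and the interaction cannot be told apart.

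**Figure D3:**
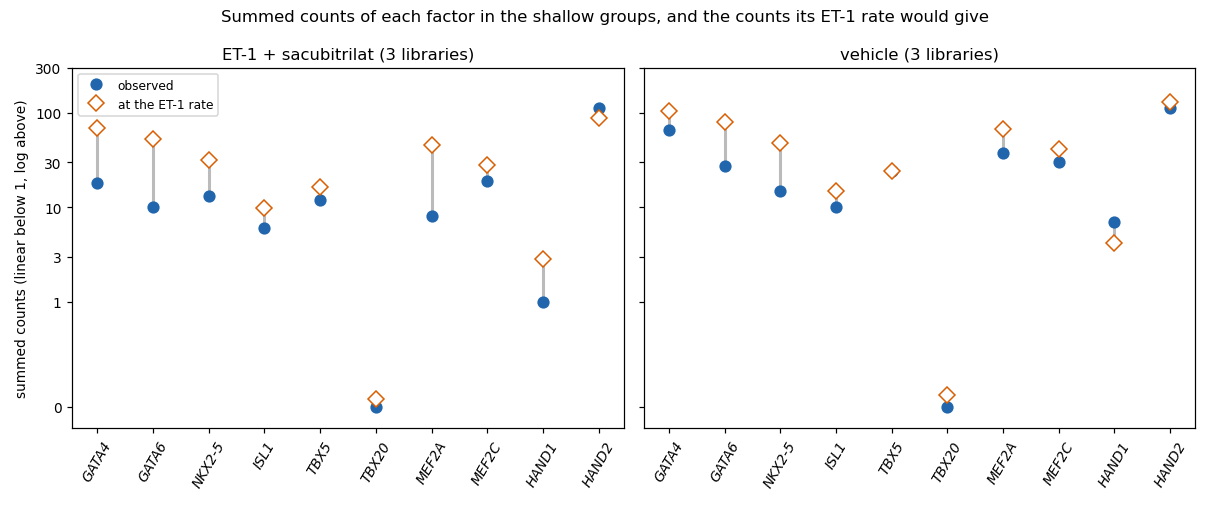
Summed counts of each factor in the libraries with both compounds and in those with vehicle, beside the counts that the rate of the ET-1 libraries would give at the same total. The count axis is linear near 0 and logarithmic above. In the combined group GATA4 had 18 counts against 69.3, GATA6 10 against 53.1 and MEF2A 8 against 45.6, whereas TBX5 in vehicle had 24 against 24.1.

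Some of these genes overlap or neighbour antisense RNA genes, and since the strand setting of the counting is not given in the sources used here, reads of a gene and of its antisense partner cannot be told apart. HAND2-AS1, whose annotated span overlaps that of HAND2 by 2960 bases, stood at 101, 81.9 and 51.9 CPM with both compounds, 52.5, 46.99 and 69.4 CPM with ET-1, 44.4, 45.7 and 49.3 CPM with sacubitrilat, and 82.0, 49.5 and 70.3 CPM with vehicle. It was not called between any 2 groups, and its interaction was 1.14 ± 0.44 (edgeR adjusted p = 0.0313). GATA6-AS1, which overlaps GATA6 by 436 bases, had 0, 1 and 0 counts with both compounds, 41, 43 and 35 with ET-1, 39, 20 and 47 with sacubitrilat, and 3, 3 and 0 with vehicle. It was called lower with both compounds than with ET-1 (edgeR adjusted p = 0.0149) and than with sacubitrilat (edgeR adjusted p = 0.0244). The interaction of GATA6-AS1 was -4.19 ± 1.21 (edgeR adjusted p = 0.00424). MEF2C-AS1, TBX5-AS1, ISL1-DT and MEF2C-AS2 had 55, 16, 22 and 1 counts in all and were not tested. The same limit applies to MEF2A, whose annotated span overlaps that of LYSMD4, a protein-coding gene on the opposite strand, by 770 bases. LYSMD4 had 54 counts in all.

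Levels over all 12 libraries were also compared between genes, as the root mean square difference of log2 CPM after each gene's own mean was subtracted, where a small value is a like pattern. The measure covers levels in libraries of unequal depth, and counting error in the shallow libraries enters it. Among 6916 genes, GATA4 was nearest to the histone chaperone gene NAP1L1 (0.15) and the G protein gamma subunit gene GNG5 (0.16), and MEF2A to RTN4 (0.19) and PI4KB (0.21), a reticulon and a phosphatidylinositol kinase. NKX2-5 was nearest to FAM78A (0.36) and to TRDN, the triadin of the calcium release complex (0.37). GATA6 was nearest to DYNLT1 (0.37) and MAP1B (0.44), HAND2 to the adenylyl cyclase gene ADCY6 (0.28) and CCDC127 (0.31), and TBX5 to WBP1 and LSM14A (both 0.25). MEF2C was nearest to the DNA methyltransferase gene DNMT3A (0.26) and CORO1C (0.28), and ISL1 to PGAP4 (0.20) and XPNPEP1 (0.26). Between the factors, GATA4 and MEF2A were closest at 0.41 and GATA6 and HAND2 farthest apart at 2.23.

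Genes known as targets of these factors were examined as a list of 34, of which 32 were tested, among them sarcomere, calcium handling, ion channel and natriuretic peptide genes. With ET-1 over vehicle 19 of the 32 were higher and 2 lower, where 11% of all tested genes were higher and 12.2% lower, with a median log2 fold change of 1.14 (0.10 over all tested genes). With ET-1 over sacubitrilat, at like depth, 17 were higher and 1 lower, where 6.44% of all tested genes were higher and 4.78% lower, with a median of 0.59 (-0.01 over all). Every cardiomyocyte marker examined above except ACTN2 is also in this list, so the 2 sets are not separate. In the same comparison 4 of the 12 markers were higher and 0 lower, with a median of 0.52. CASQ2, the calsequestrin that binds calcium in the sarcoplasmic reticulum, was higher by 3.98 ± 0.34 on the log2 scale with ET-1 than with sacubitrilat (152 and 9 counts, edgeR adjusted p = 1.73e-11). The ventricular myosin light chain gene MYL2 was higher by 2.30 ± 0.17 (431 and 87 counts). KCNH2, the channel of the rapid delayed rectifier current, rose with ET-1 over vehicle by 2.72 ± 0.50 (341 and 6 counts), and the creatine kinase gene CKMT2, with 116 counts and 0, was at least 4.42-fold higher against 3 counts over the group. With both compounds over ET-1, 6 of the 32 were higher and 18 lower, where 16.6% of all tested genes were higher and 17.8% lower (median -1.21 against -0.23 over all). Among the 6 that were higher, named after their values were seen, were MYL4, the atrial myosin light chain gene, and TNNC1, the cardiac troponin C gene. MYL4 was at 12550 ± 6626 CPM with both compounds, 2731 ± 109 with ET-1, 2060 ± 26.5 with sacubitrilat and 8700 ± 5094 with vehicle (SD, n = 3). TNNC1 was at 5683 ± 2576 CPM with both compounds, 1679 ± 92.4 with ET-1, 1280 ± 102 with sacubitrilat and 3760 ± 1071 with vehicle (SD, n = 3). Both stood higher in each shallow group than in each deep one. PLN, the phospholamban that restrains the calcium pump, was lower (-3.61 ± 0.39, 21 and 3251 counts, edgeR adjusted p = 3.19e-09), and CASQ2, with 0 and 152 counts, was at least 3.88-fold lower. With sacubitrilat over vehicle 11 were higher and 6 lower, where 8.68% of all tested genes were higher and 11.2% lower, and those higher included NPPB, which encodes brain natriuretic peptide (2.78 ± 0.25). With both compounds over sacubitrilat 8 were higher and 12 lower, where 17.2% of all tested genes were higher and 17.8% lower, and those lower included NPPB (-3.76 ± 0.32), the cardiac actin gene ACTC1 (-3.17 ± 0.42) and the sodium-calcium exchanger gene SLC8A1 (-3.11 ± 0.44). Between both compounds and vehicle edgeR called none of the 32, where it called 0.179% of all tested genes.

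The list of 44 partner factors and cofactors of the heart, 34 of them tested, had 8 higher and 1 lower with ET-1 over vehicle, where 23.2% of all tested genes were called (median 0.65 against 0.10 over all). With both compounds over ET-1 it had 2 higher and 14 lower, where 16.6% of all tested genes were higher and 17.8% lower (median -1.19 against -0.23, and -1.18 with PRDM16, at 0 counts, set at its bound). MRTFA, the actin-sensing coactivator of SRF, was among the 2 that were higher. It was at 469 ± 232 CPM with both compounds, 73.1 ± 6.8 with ET-1, 88.7 ± 2.9 with sacubitrilat and 348 ± 259 with vehicle (SD, n = 3), a log2 fold change of 2.52 ± 0.24 for both compounds over ET-1 (edgeR adjusted p = 2.74e-10). TEAD3, a TEA-domain factor that reads out YAP, rose with ET-1 over vehicle by 1.91 ± 0.35 and with sacubitrilat by 2.02 ± 0.34, and TEAD2 rose with sacubitrilat by 1.52 ± 0.39. PRDM16, a zinc finger factor of the compact ventricular wall, had 0 counts with both compounds and 78 with ET-1, at least 1.99-fold lower. With ET-1 over sacubitrilat 3 of the 34 were higher and 2 lower, where 11.2% of all tested genes were called. HOPX, a homeodomain-like partner of SRF, was 38.9 ± 4.7 CPM with ET-1 and 8.2 ± 1.7 CPM with sacubitrilat (2.30 ± 0.23, edgeR adjusted p = 1.18e-09). TBX18, a T-box factor of the epicardium and sinus node, was 19.0 ± 1.8 CPM with ET-1 and 80.7 ± 9.6 CPM with sacubitrilat (-1.98 ± 0.19, edgeR adjusted p = 3.54e-10), and NR2F2, an atrial nuclear receptor, was lower by 0.93 ± 0.15 on the log2 scale (a log2 fold change of -0.93). TBX18 is also 1 of the 9 epicardial markers examined, of which 7 were tested. With ET-1 over sacubitrilat 6 of the 7 were lower, where 4.78% of all tested genes were lower. With sacubitrilat over vehicle 6 partners were higher and 1 lower, where 8.68% of all tested genes were higher and 11.2% lower. With both compounds over sacubitrilat 3 were higher and 13 lower, where 17.2% of all tested genes were higher and 17.8% lower.

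Of 25 genes that regulate MEF2, GATA4 and NFAT activity, 23 were tested. With ET-1 over vehicle 4 were higher and 0 lower, where 23.2% of all tested genes were called, among them FHL2, a LIM-domain cofactor that restrains calcineurin (2.26 ± 0.34), and HDAC7, a class II deacetylase that silences MEF2 (1.06 ± 0.33). With ET-1 over sacubitrilat 3 were higher and 0 lower, where 11.2% of all tested genes were called. FHL2 was 99.5 ± 0.4 CPM with ET-1 and 40.7 ± 4.4 CPM with sacubitrilat (1.41 ± 0.13, edgeR adjusted p = 3.54e-10). The MEF2-binding deacetylase gene HDAC9 was higher by 1.10 ± 0.30 and CAMK2D, the cardiac calmodulin kinase that exports such deacetylases from the nucleus, by 0.43 ± 0.13. With both compounds over ET-1 0 were higher and 7 lower, 7 of the 23 where 34.4% of all tested genes were called (median -0.86 against -0.23 over all, and -0.85 with the 2 genes at 0 counts set at their bounds). NFATC2, a calcineurin-activated partner of GATA4, had 0 counts with both compounds and 114 with ET-1, at least 2.91-fold lower. PRKD1, the protein kinase D that phosphorylates class II deacetylases, had 0 and 53, which at these unequal totals is at least 1.35-fold lower. With sacubitrilat over vehicle edgeR called 0 of the 23, where it called 19.9% of all tested genes. With both compounds over sacubitrilat 1 was higher and 8 lower, where 17.2% of all tested genes were higher and 17.8% lower.

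**Figure D4:**
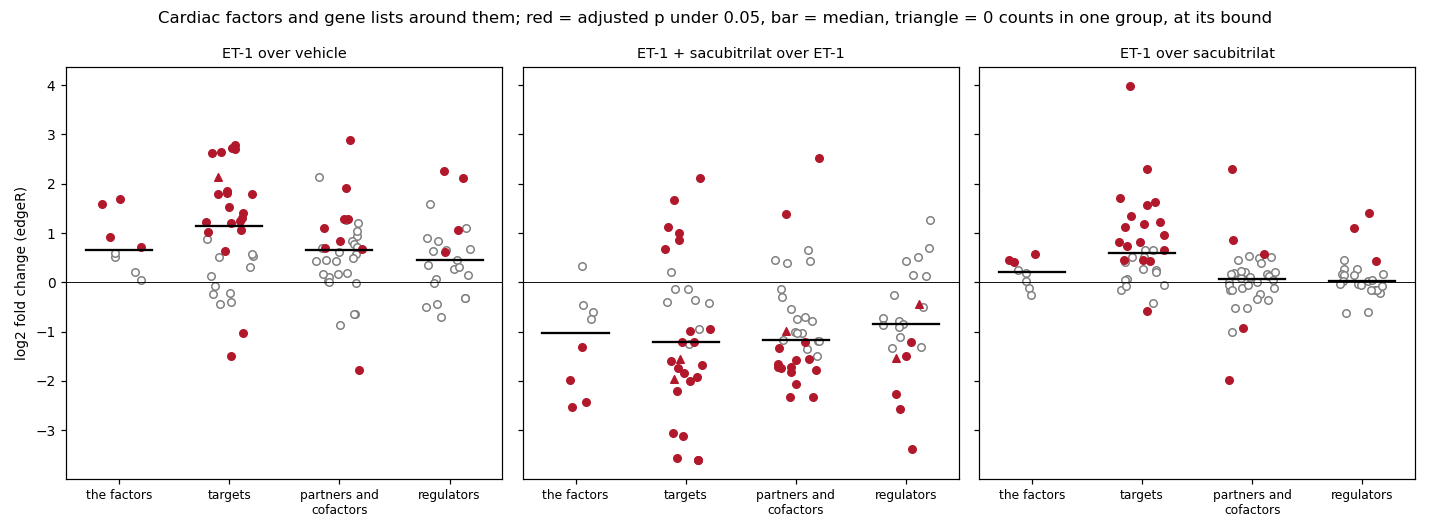
Log2 fold changes of the 8 tested factors and of 3 lists of genes around them, for ET-1 over vehicle, both compounds over ET-1 and ET-1 over sacubitrilat. Each point is a gene, red marks an adjusted p under 0.05, the bar is the median, and triangles are genes with 0 counts in 1 group, placed at the bound that 3 counts give. With ET-1 over sacubitrilat the targets have a median of 0.59, whereas the partners and cofactors lie at 0.07 and the regulators at 0.02.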

How the data were processed

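Poly(dT)-primed 3′-end libraries were trimmed by fastp 0.24.0 and assigned to genes by featureCounts, per the submitters' processing notes. No source used here gives the aligner, the annotation, the strand setting or how the molecular identifiers in the primers were used. The authors deposited estimated counts per gene and CPM values, and each CPM equalled its count over the library total. The 92 spike-in features held 0 counts and were left out.

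Counts were rounded to whole numbers. All 12 libraries entered 1 edgeR 4.0.16 quasi-likelihood fit (R 4.3.3, TMM, filterByExpr, group as its term), with p adjusted by Benjamini-Hochberg over 11203 genes. Total counts per library, 80844 to 1953122, limit the precision. The intervals of log2 fold changes come from edgeR's quasi-likelihood fit. The exact counting intervals of HAND1 and the floor (3 counts) hold for counting error alone. The factors and lists were chosen with earlier results of these data known. Up to 3 called genes per list and comparison, of at least 5 CPM on average, could be named by the size of their change, and for each factor with a mean of at least 20 CPM the 2 genes nearest in pattern. Coordinates are of GENCODE 29. The alternatives exchanged TMM for RLE, dropped the filter or required on average 50 counts, used DESeq2 1.42.0 or voom (limma 3.58.1), added a replicate block, took the compared groups alone, left out each library in turn or both under 100000 counts, and thinned libraries to 80000 counts. Deviations of same-numbered libraries from their group means had r from -0.146 to 0.0396 in 18 pairs, so no block was used. The tests were first run on simulated data.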

Additional observations from a re-analysis of the deposited data

Results flagged for a closer look

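The interaction test called 4 of the 8 tested factors, near the share of 46.1% called among all tested genes. All 4 were lower, where 26% of all tested genes were lower. On the log2 scale the effect of ET-1 in the presence of sacubitrilat minus that in its absence was -3.99 for GATA6, -3.03 for MEF2A, -2.81 for GATA4 and -2.55 for NKX2-5. Each of the 4 differences sets libraries of low total (both compounds, vehicle) against libraries of high total (ET-1, sacubitrilat). Depth and the interaction therefore cannot be told apart.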

How the results depend on the processing

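Of 448 alternative values of calls made for single factors, 413 kept their call, 35 missed the threshold and 0 reversed. A setting in which a factor was no longer tested gives no value here, as for NKX2-5 and MEF2A after thinning. The values also include fits that left out a library of a group outside the comparison, so the share that kept its call is a generous measure. Of 623 values of differences that were not called, 16 passed and 35 changed sign. HAND1, TBX20, ISL1, TBX5, MEF2C, NKX2-5 and GATA6 had 0 to 30 counts in each shallow group, which limits their values. MEF2A had 8 counts with both compounds and 37 with vehicle, and GATA4 had 18 and 65, which limits theirs as well. Values of HAND2 turn on replicate 1 of the combined group.

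For ET-1 over sacubitrilat, 1 factor was called without a filter, 1 with DESeq2, 0 with limma-voom and 0 after thinning to 80000 counts, where 3 factors were tested. After thinning, 0 factors were called for ET-1 over vehicle, 2 for both compounds over ET-1 and 2 for both over sacubitrilat. For both compounds over vehicle DESeq2 called 1 factor. With 1 library left out, 1 to 3 factors were called for ET-1 over sacubitrilat, 3 to 5 for ET-1 over vehicle, 3 to 4 for both over ET-1, 4 to 5 for both over sacubitrilat, 0 to 2 for both over vehicle, 2 to 3 for sacubitrilat over vehicle and 4 to 5 for the interaction. With a replicate block, 2 factors were called for ET-1 over sacubitrilat, HAND2 not among them (0.56, edgeR adjusted p = 0.138), and the block changed no other call of a factor. With a mean of at least 50 counts required, GATA4 with ET-1 over vehicle (0.46), NKX2-5 with both compounds over ET-1 (-0.90) and NKX2-5 with sacubitrilat over vehicle (0.97) and HAND2 with ET-1 over sacubitrilat (0.57) missed the threshold.

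These differences, not called with all libraries and the settings of the report, changed sign in log2 fold change. For ET-1 over vehicle, HAND2 was -0.043 with DESeq2, -0.079 with a mean of at least 50 counts, -0.55 after thinning and -0.12 to 0.54 with 1 library left out, and TBX5 was -0.049 with the compared groups alone, -0.23 without the libraries under 100000 counts and -0.20 to 0.57 with 1 library left out. For ET-1 over sacubitrilat, GATA6 was -0.40 after thinning and -0.028 to 0.11 with 1 library left out. For both compounds over ET-1, HAND2 was -0.14 without a filter, -0.52 without the libraries under 100000 counts and -0.57 to 0.61 with 1 library left out. For both over sacubitrilat, MEF2C was 0.018 without the libraries under 100000 counts and 0.073 with a mean of at least 50 counts. For both over vehicle, MEF2C was 0.11 and 0.079 under these 2 settings and -0.53 to 0.52 with 1 library left out, NKX2-5 was -0.55 without the libraries under 100000 counts and -0.39 to 0.66 with 1 left out, ISL1 was 0.063 with limma-voom and -0.80 to 0.095 with 1 left out, GATA6 was -1.53 to 0.18 and HAND2 -0.30 to 0.89 with 1 left out. The interaction of HAND2 was -0.46 without the libraries under 100000 counts, -0.023 without a filter and -0.25 to 1.01 with 1 library left out, and it passed after thinning (1.91, edgeR adjusted p = 0.0474) and without replicate 3 of the combined group (0.91, edgeR adjusted p = 0.0366). The cause of these changes was not tested.

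Counts over all genes moved as well. For ET-1 over sacubitrilat, 1257 genes were called, but 758 with DESeq2, 472 with limma-voom, 638 with a mean of at least 50 counts, 2106 with these groups alone, 1898 without the libraries under 100000 counts, 9 after thinning and 681 to 1672 with 1 library left out. For both over vehicle, 20 were called, but 62 without a filter, 51 with a mean of at least 50 counts, 165 with DESeq2, 10 with limma-voom, 10 with the replicate block, 0 with these groups alone, 3 after thinning, 126 without the libraries under 100000 counts and 6 to 221 with 1 library left out. A mean of at least 50 counts and thinning, which test fewer genes, gave 992 and 444 for ET-1 over vehicle in place of 2596, 1349 and 792 for both over ET-1 in place of 3854, 792 and 405 for sacubitrilat over vehicle in place of 2228, 1351 and 808 for both over sacubitrilat in place of 3925, and 1587 and 929 for the interaction in place of 5163. Sacubitrilat over vehicle had 1450 without vehicle replicate 3.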
